A study of Rattus norvegicus with 9 samples.

Results

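ATP-binding cassette (ABC) transporters, organic anion transporting polypeptides (OATPs, the Slco genes) and the organic cation and anion carriers of the Slc22a family were followed in the livers of rats with carbon tetrachloride (CCl4) injury. The members are the genes that a probe set named alone and whose symbol begins with Abc, a letter from a to g and a digit, or with Slco or Slc22a and a digit. The 3 bile salt and canalicular exporters Abcb11, Abcb4 and Abcc2 were left out of the rule. This gave 62 of the 14377 genes on the array, read by 83 probe sets, and each gene was represented by the probe set with the highest mean signal. A probe set is a group of short oligonucleotides against 1 transcript, and the software marked it as present, marginal or absent on each array. Of the 62 transporters, 46 were called present on at least 1 of the 9 arrays, 41 on at least 3 and 32 on all 9, and 16 were called present on none.

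Total RNA came from frozen liver of male Sprague-Dawley rats, with 1 array for each sample and 3 arrays in each group. Vehicle livers (replicates 3, 4 and 5) came from control rats, and the sources used here do not say what the vehicle contained. CCl4 livers (replicates 1, 2 and 3) came from rats given 2 intraperitoneal injections a week of a CCl4 and olive oil mix, at 0.2 mL per 100 g, for 8 weeks. CCl4+Rot livers (replicates 4, 5 and 6) came from rats that had in addition received rottlerin, an activator of the BK potassium channel, at 2.5 mg per kg by the same route, 2 weeks after the first CCl4 injection. How often rottlerin was repeated was not given in the sources used here, and no group received rottlerin without CCl4. The questions addressed were which transporter transcripts differed after CCl4 injury and which differed with rottlerin during that injury.

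CCl4 replicate 3 stood apart from the other arrays. It had 12714 probe sets called present, against 15550 to 16849 on the other 8 arrays, and a median log2 signal of 7.81, against 6.79 to 7.01. Among the transporters it had 33 present calls, against 38 to 41 elsewhere, and the 16 transporters that were present on no array had a median log2 signal of 7.30 on it, against 5.96 to 6.57. Values without this array are given beside several of the differences that it moved. The samples are labelled as liver, and all 8 hepatocyte markers, albumin among them, were present on all 9 arrays. The values describe whole liver, in which fewer cells of a type and less RNA per cell cannot be told apart.

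Hepatocytes take up bile acids, hormones, drugs and organic ions from sinusoidal blood through Slco and Slc22a carriers, which work by exchange or along electrochemical gradients. ABC proteins use ATP to move lipids, sterols, conjugates and drugs out of the cell into bile or blood, or into organelles. Not every ABC protein is a transporter, because Abce1 and the Abcf proteins have no membrane-spanning part and act on ribosomes. Many of the uptake carriers are known to be less abundant in injured liver, and several basolateral exporters more abundant.

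The member pair with the widest differences, Abcg5 and Abcg8, forms 1 sterol exporter and lies head to head on chromosome 6. In RefSeq (build GRCr8) the annotated starts are separated by 205 bases, and the windows from 250 bases before to 50 bases after each start share 295 of their 300 bases on opposite strands. The window of Abcg5, chr6:15717686-15717985 on the plus strand, is therefore the promoter sequence of both genes and is shown with the letters AGATAA in capitals, the core that GATA factors are known to bind.

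Abcg5: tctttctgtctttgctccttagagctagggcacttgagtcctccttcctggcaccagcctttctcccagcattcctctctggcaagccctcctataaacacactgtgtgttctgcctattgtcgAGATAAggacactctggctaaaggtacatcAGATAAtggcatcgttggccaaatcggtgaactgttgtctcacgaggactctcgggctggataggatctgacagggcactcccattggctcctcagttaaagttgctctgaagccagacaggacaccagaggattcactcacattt

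AGATAA was chosen after the values were seen and was searched on both strands. It occurred at least once in 11.6% of 33469 RefSeq rat promoter windows of the same length and in 5 of the 51 transporters that had such a window (9.8%). Windows with 2 or more copies made up 1.09% of all windows, and Abcg5 and Abcg8 were the 2 transporters with one. As their windows share nearly all bases, each motif count of transporters here that holds both genes counts 1 sequence for each of them. The core of the antioxidant response element, TGACNNNGC, also searched on both strands, was in 12.1% of all windows and in those of 6 transporters (11.8%), namely Abca5, Abcc10, Abcg5, Abcg8, Slc22a4 and Slc22a23. Slc22a23 had the smallest unadjusted p among the transporters between CCl4 and vehicle, and its window, chr17:30749195-30749494 on the plus strand, is shown with this core in capitals. The letters CAAGGTCA, TATAAA and CCAAT were searched as well. They were in 1.96%, 17.6% and 39.2% of the transporter windows, against 1.52%, 14.2% and 37.5% of all windows. These matches are descriptions of the letters and not of binding.

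Slc22a23: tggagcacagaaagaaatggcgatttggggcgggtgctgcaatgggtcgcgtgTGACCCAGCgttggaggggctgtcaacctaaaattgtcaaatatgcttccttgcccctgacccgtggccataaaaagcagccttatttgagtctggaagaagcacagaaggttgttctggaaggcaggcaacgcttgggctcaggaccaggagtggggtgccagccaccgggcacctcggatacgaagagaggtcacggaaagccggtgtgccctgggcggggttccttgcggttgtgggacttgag

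No transporter passed the test in any of the 3 comparisons, where passing needs a limma p below 0.05 after adjustment over all 31042 probe sets, together with a 1.5-fold change. The same test called 0% of all probe sets between CCl4 and vehicle, 0.00322% (1 probe set) between CCl4+Rot and CCl4, and 0.0258% (8 probe sets) between CCl4+Rot and vehicle. Each difference is therefore given with its error and with whether the arrays of both groups overlapped. An exact permutation test of a single gene, two-sided and with groups of 3, cannot reach a p below 0.1. CCl4 arrays enter both the comparison with vehicle and the comparison with CCl4+Rot, so opposite signs in these comparisons are not independent of each other.

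In CCl4 livers, the prostaglandin carrier Slco2a1 and the orphan carrier Slc22a23 had lower signals than in vehicle livers, by 1.69-fold and 1.55-fold in the group means. Abca8, Abcg8, Abcg5 and Abcb1a had higher means. Across the 46 detected transporters, 21 were higher and 25 lower, with a median log2 difference of -0.06, against 0.06 over all 10732 detected genes. An unadjusted limma p below 0.05 was reached by 3 transporters that were higher (Abca8, Abcb9 and Abcg8) against a background of 9.6% of detected genes, and by 5 that were lower (among them Abcc6, Abcd3, Slc22a23 and Slco2a1) against 5.11%. The arrays of both groups did not overlap for 5 transporters that were higher (Abca8, Abcb6, Abcb9, Abcc4 and Slc22a15) and 6 that were lower (among them the same 4 and Slco2b1), where the background was 13.2% and 10.9% of detected genes. As shares of the 46, the lower transporters were 10.9% by the p and 13% by the overlap, and the higher ones 6.52% and 10.9%. Without CCl4 replicate 3, which leaves 2 arrays against 3, 9 higher and 13 lower transporters did not overlap, at a background of 19.4% and 17.2%. The unadjusted p below 0.05 was then reached by 3 higher and 4 lower transporters, at a background of 8.68% and 5.09%. All these counts of higher transporters include Abcb9, which was called present on 1 CCl4 array and on no other. Abcb9 thus counted as detected only through the group where it was high, and its place in the counts gives no support.

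With CCl4+Rot, the signal of the sterol exporter Abcg5 was 5.41-fold lower than with CCl4 alone in the group means, and Slc22a23 was 1.63-fold higher. Of the 46 detected transporters, 20 were higher and 26 lower, with a median log2 difference of -0.03, against 0.00 over detected genes. Without CCl4 replicate 3 the median was 0.07. An unadjusted p below 0.05 was reached by 1 higher transporter, Slc22a23, against a background of 2.42%, and by 2 lower ones, Abcg5 and Abcg8, against 1.93%. Arrays did not overlap for 6 higher transporters (Abcb10, Abcc6, Abcg1, Slc22a23, Slco1b2 and Slco2b1) against a background of 6.85%, and for 3 lower ones (Abcb9, Abcg5 and Abcg8) against 4.45%. Here too Abcb9 counted as detected only through CCl4, the group where it was high. Without CCl4 replicate 3 the counts by overlap were 7 and 5, at a background of 13.5% and 10.2%, and those by the p were 2 and 3, at 3.35% and 1.95%.

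Between CCl4+Rot and vehicle, Abcg5 had a lower signal and Abcg1 a higher one. The 46 detected transporters divided into 22 higher and 24 lower, with a median log2 difference of -0.02, against 0.03 over detected genes. Abcg1 alone had an unadjusted p below 0.05 among those that were higher (background 8.62%), and 2 transporters, Abcg5 among them, did among those that were lower (background 2.35%). With CCl4 replicate 3 out of the shared fit, 3 higher and 4 lower transporters reached it, at a background of 10.7% and 3.73%. The arrays did not overlap for 3 higher transporters, Abca3, Abca8 and Abca8a, against a background of 17.7%. They did not overlap for 7 lower ones, among them Abcd3, Abce1, Abcf1, Abcg5, Slc22a4 and Slco2a1, against 11.1%.

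**Figure D1:**
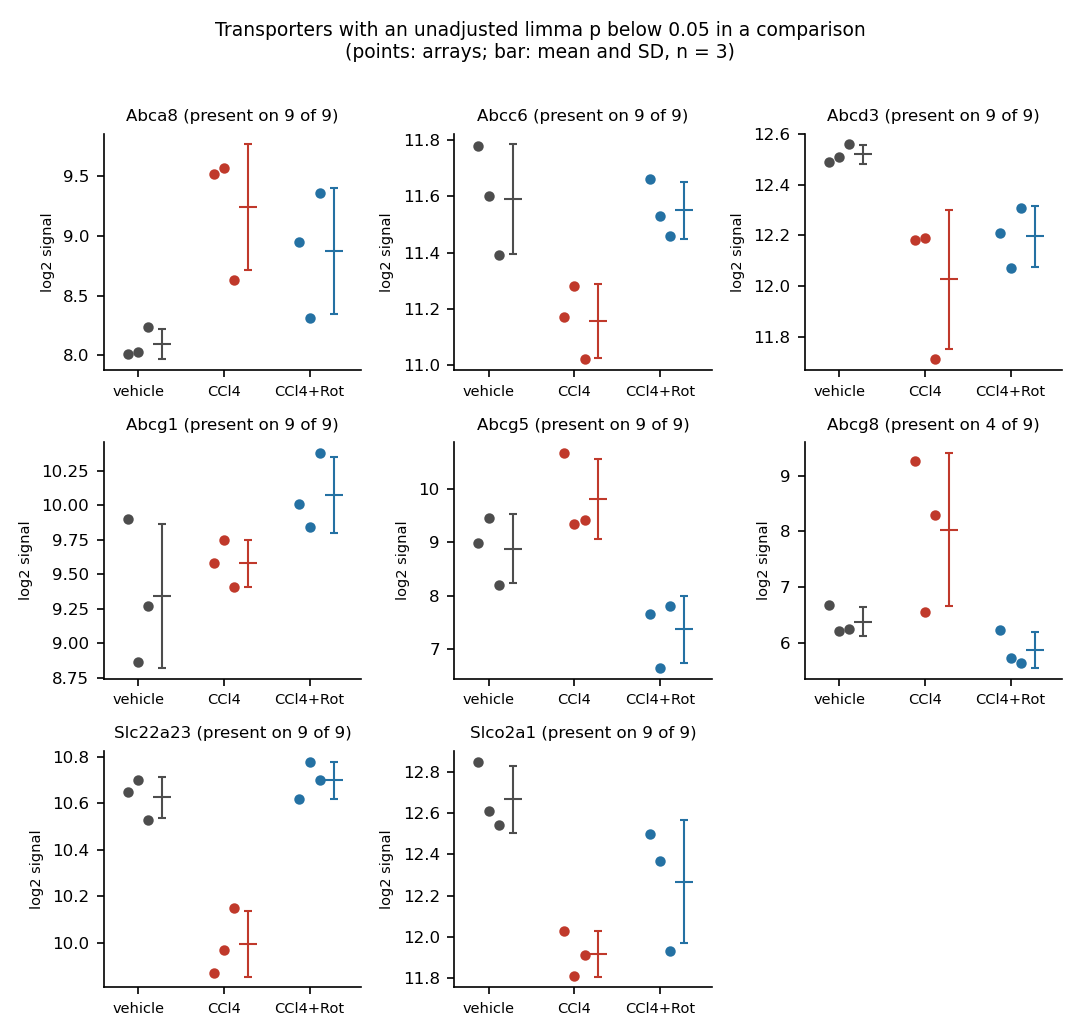
Log2 signals of 8 transporters that were present on at least 3 arrays and had an unadjusted limma p below 0.05 in a comparison, with 1 point for each array and the mean and SD of each group beside the points (n = 3). The vertical scale differs between panels. Slc22a23 lies at 9.87 to 10.15 on the CCl4 arrays and at 10.53 to 10.78 on the other 6, and Abcg5 lies at 6.65 to 7.81 on the CCl4+Rot arrays, below all others.

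Sterol exporters came first in the comparison of CCl4+Rot with CCl4. Abcg5 and Abcg8 are the partners of a canalicular transporter that moves cholesterol and plant sterols into bile, and neither works without the other. Abcg5 had log2 signals of 8.99, 9.46 and 8.20 in vehicle livers, 10.67, 9.34 and 9.42 in CCl4 livers and 7.66, 6.65 and 7.81 in CCl4+Rot livers. All CCl4+Rot arrays were lower than all arrays of both other groups. The log2 difference was -2.44 (SE 0.509) between CCl4+Rot and CCl4, with an unadjusted limma p of 0.0016 and an adjusted p of 0.608, and stayed between -2.67 and -2.01 with any single array left out. Against vehicle it was -1.51 for CCl4+Rot (adjusted p 0.458 from limma) and 0.93 for CCl4 (adjusted p 0.494).

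Abcg8 had log2 signals of 6.67, 6.20 and 6.24 in vehicle livers, 9.26, 6.54 and 8.29 in CCl4 livers and 6.23, 5.73 and 5.63 in CCl4+Rot livers. It was called present on 4 arrays, 2 of vehicle and 2 of CCl4, and on none of CCl4+Rot. The CCl4+Rot group therefore gives only a bound. With all arrays this bound equals the ratio of the group means, 4.49-fold lower than with CCl4 (adjusted p 0.689 from limma). The ratio is an estimate and not a minimum. The log2 difference behind it was -2.17, but -1.55 without CCl4 replicate 1, -2.91 without CCl4 replicate 2 and -1.34 with arrays weighted by their quality. CCl4 replicates 1 and 3 were high, and replicate 2 lay within the vehicle range. Between CCl4 and vehicle the log2 difference was 1.66 (SE 0.617, adjusted p 0.354 from limma), and it ranged from 1.05 without CCl4 replicate 1 to 2.40 without CCl4 replicate 2, and was 0.85 with array weights. For both genes CCl4 replicate 1 had the highest signal of the 9 arrays.

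Abcg1, which passes cholesterol to high-density lipoprotein and is known from macrophages, had its highest signals in CCl4+Rot livers, at 10.01, 9.84 and 10.38, against 9.58, 9.75 and 9.41 with CCl4 and 9.90, 8.86 and 9.27 with vehicle. The log2 difference was 0.73 (SE 0.292) between CCl4+Rot and vehicle, with an adjusted p of 0.555 from limma, and 0.50 between CCl4+Rot and CCl4. The other 2 probe sets of Abcg1 went the other way in the latter comparison, at -0.72 and -0.48, and had differences of 1.05 and 0.86 between CCl4 and vehicle, so the direction with rottlerin depends on the probe set. All 5 macrophage markers that the table measures were present, Cd68, Cd163, Csf1r, Clec4f and Cd5l, and their summed signal was 12535 to 18603 in vehicle, 13326 to 18129 in CCl4 and 18960 to 21222 in CCl4+Rot livers. The markers did not move alike. Between CCl4+Rot and vehicle, Cd68 and Csf1r had log2 differences of 0.86 and 0.84 without overlap. Cd163 (0.08), Clec4f (0.11) and Cd5l (0.60) overlapped. Their part in the Abcg1 values was not tested.

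Abca1, which loads cholesterol and phospholipid onto apolipoprotein A-I, had 4 probe sets, each present on all 9 arrays. All 4 were higher with CCl4+Rot than with CCl4, by log2 differences of 0.12 to 0.84, while between CCl4 and vehicle they ran from -0.42 to 0.20. The brightest gave 0.32 (SE 0.22, adjusted p 0.779 from limma), or 0.13 without CCl4 replicate 3. Abcg2, an exporter of drugs and porphyrins, had wide replicates, from 7.77 to 9.41 in vehicle, 8.51 to 9.50 in CCl4 and 8.93 to 9.83 in CCl4+Rot livers, and its groups overlapped throughout.

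Among the organic ion carriers, Slc22a23 had the smallest unadjusted p in both comparisons with CCl4 livers. It is an orphan carrier with no established substrate. Log2 signals were 10.65, 10.70 and 10.53 in vehicle livers, 9.87, 9.97 and 10.15 in CCl4 livers and 10.62, 10.78 and 10.70 in CCl4+Rot livers. All CCl4 arrays were lower than the other 6, while vehicle and CCl4+Rot overlapped. The log2 difference between CCl4 and vehicle was -0.63 (SE 0.153), with an unadjusted limma p of 0.00364 and an adjusted p of 0.231. Between CCl4+Rot and CCl4 it was 0.71, with an unadjusted p of 0.00197 and an adjusted p of 0.608, and between CCl4+Rot and vehicle 0.07. A second, dimmer probe set gave -0.40 and 0.43 with errors of 0.403, and its groups overlapped.

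Slc22a8 (OAT3), an anion carrier best known from kidney, had a difference of -0.66 between CCl4 and vehicle on its brightest probe set, with overlap (adjusted p 0.448 from limma). Its second probe set, at 9.37, 10.06 and 9.21 in vehicle and 8.66, 8.16 and 8.85 in CCl4 livers, did not overlap and gave -0.99 (adjusted p 0.263 from limma).

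Several Slc22a carriers differed little. Slc22a7 (OAT2), a hepatocyte carrier of organic anions, lay between 12.05 and 12.65 on all 9 arrays and had a log2 difference of 0.02 (SE 0.208) between CCl4 and vehicle. Slc22a18, an orphan carrier, lay between 12.56 and 12.91, and the differences between its groups were 0.03 to 0.07. The carnitine carrier Slc22a5 had -0.16 and -0.25 in the comparisons of CCl4 with vehicle and of CCl4+Rot with CCl4, or -0.44 and 0.03 without CCl4 replicate 3, and its neighbour Slc22a4, a carrier of ergothioneine, had -0.16 and -0.21 and was present on 4 arrays. Slc22a17, a receptor for lipocalin-2, and Slc22a25 lay within 0.30 of no difference in all 3 comparisons. Slc22a15 was higher in CCl4 livers, at 7.31, 7.14 and 7.69, than in vehicle livers, at 6.76, 6.93 and 6.90, without overlap (adjusted p 0.422 from limma), and its difference was 0.37 without CCl4 replicate 3. Slc22a24 and the urate carrier Slc22a12 were present on 2 arrays each. The latter was called present on vehicle arrays alone, at 5.19, 4.91 and 6.64 against 3.50, 3.56 and 6.52 with CCl4, and overlapped only through CCl4 replicate 3.

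Of the Slco carriers, the prostaglandin transporter Slco2a1, which clears prostaglandins from the circulation, had the lowest p in CCl4 livers. Its log2 signals were 12.85, 12.61 and 12.54 in vehicle, 12.03, 11.81 and 11.91 in CCl4 and 12.50, 12.37 and 11.93 in CCl4+Rot livers. The CCl4 arrays lay below all vehicle arrays, and 2 of the CCl4+Rot arrays lay between both groups. The log2 difference was -0.75 (SE 0.2, adjusted p 0.251 from limma) between CCl4 and vehicle, and a second probe set gave -0.79 without overlap. CCl4+Rot and CCl4 differed by 0.35, and CCl4+Rot and vehicle by -0.41. Slco2a1 is also known from endothelium, and the 5 endothelial markers, all detected, had summed signals of 8866 to 10015 in vehicle, 6726 to 9455 in CCl4 and 9189 to 10072 in CCl4+Rot livers. The lowest of these was CCl4 replicate 3. Single markers did not move alike. Between CCl4 and vehicle, Kdr had a log2 difference of -0.34 without overlap. Lyve1 (-0.30), Vwf (-0.02), Pecam1 (0.05) and Stab2 (0.26) overlapped. The markers' part in the Slco2a1 values was not tested.

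Slco2b1, a carrier of steroid conjugates, had narrow groups, at 11.29, 11.04 and 11.21 in vehicle, 11.02, 10.79 and 10.84 in CCl4 and 11.17, 11.25 and 11.23 in CCl4+Rot livers. All CCl4 arrays were below the other 6. The log2 difference was -0.29 (SE 0.152, adjusted p 0.47 from limma) for CCl4 against vehicle and 0.33 (adjusted p 0.752) for CCl4+Rot against CCl4. Slco1b2, the rodent counterpart of the human hepatic OATPs of bilirubin and statins, lay between 13.55 and 14.13 on all arrays, with differences of -0.22 and 0.26. Slco1a1 had -0.32 and -0.03, and the gene that the table names Slco1a2 and RefSeq lists as Slco1a4 had 0.20 and -0.08. Both overlapped between groups in these comparisons, but without CCl4 replicate 3 the latter had 0.42 and was higher with CCl4 than with vehicle on both arrays left. The rarely detected relatives Slco1a5, Slco1a6 and Slco6b1 were present on 5, 1 and 3 arrays. Slco6b1, present on no vehicle array, read 5.58, 5.55 and 7.29 with CCl4 against 5.62, 4.89 and 4.17 with vehicle, so that only CCl4 replicate 3 was above all vehicle arrays.

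The 8 hepatocyte markers had summed signals of 208136 to 230141 in vehicle and 217266 to 226067 in CCl4+Rot livers. In CCl4 livers they reached 228073 at most, and the lowest sum, 144001, was that of CCl4 replicate 3. Transporters that were lower with CCl4 had these log2 differences from vehicle without this array: -0.71 for Slc22a23, -0.75 for Slco2a1, -0.37 for Abcc6 and -0.33 for Abcd3, which had -0.49 with it. The part of the hepatocyte markers in these values was not tested.

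Abcb1a and Abcc4, exporters of drugs and conjugates, had higher group means with CCl4. Abcb1a (P-glycoprotein), an exporter of bulky lipophilic drugs, had log2 signals of 8.82, 8.85 and 7.24 in vehicle, 10.77, 9.92 and 7.75 in CCl4 and 9.28, 8.18 and 9.00 in CCl4+Rot livers. CCl4 replicates 1 and 2 were above every other array, and replicate 3 lay within the vehicle range. The log2 difference of 1.18 (SE 0.808, adjusted p 0.574 from limma) became 2.04, without overlap, when replicate 3 was left out. A second Abcb1a probe set, at 7.91, 8.28 and 7.44 in vehicle and 9.82, 9.13 and 8.33 in CCl4 livers, did not overlap and gave 1.22 (SE 0.42, adjusted p 0.328 from limma). A further probe set that matches both Abcb1a and Abcb1b, and so belongs to neither gene alone, read 7.58, 8.14 and 6.17 in vehicle, 9.93, 10.83 and 9.36 in CCl4 and 8.87, 8.83 and 10.74 in CCl4+Rot livers. All arrays of both CCl4-treated groups were above all vehicle arrays on it, with log2 differences of 2.74 (adjusted p 0.249 from limma) and 2.18 (adjusted p 0.44).

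Abcc4 (MRP4), a basolateral exporter of conjugates and cyclic nucleotides, had signals of 7.32, 7.18 and 7.54 in vehicle, 8.17, 7.81 and 7.79 in CCl4 and 7.26, 7.36 and 8.08 in CCl4+Rot livers. The CCl4 arrays were above the vehicle arrays, and CCl4+Rot spanned both. The log2 difference for CCl4 was 0.58 (SE 0.258, adjusted p 0.418 from limma). Abcc3 (MRP3), the other basolateral exporter best known in cholestatic liver, was called present on no array and has no fold. The 5 measured cholangiocyte markers, of which Krt7 and Cldn4 were present on no array, had summed signals of 883 to 1074 in vehicle, 2522 to 5451 in CCl4 and 1243 to 2442 in CCl4+Rot livers. Spp1, one of them, had log2 signals of 5.92 to 6.42 in vehicle and 9.90 to 12.11 in CCl4 livers, a log2 difference of 5.00. Of the other detected markers, Epcam had 0.48 without overlap and Krt19 had 0.20 with overlap, so the sums do not describe all markers alike. The markers' part in the values of Abcb1a and Abcc4 was not tested.

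Abcc6 is a hepatocyte protein through which ATP is released, a source of pyrophosphate that restrains calcification. Its log2 signals were 11.78, 11.60 and 11.39 in vehicle, 11.17, 11.28 and 11.02 in CCl4 and 11.66, 11.53 and 11.46 in CCl4+Rot livers. The CCl4 arrays were below the other 6. The log2 difference was -0.43 (SE 0.17, adjusted p 0.37 from limma) between CCl4 and vehicle and 0.39 (adjusted p 0.75) between CCl4+Rot and CCl4. Abcc9 and Abcc8, the regulatory subunits of ATP-sensitive potassium channels, had -0.79 and -0.06 between CCl4 and vehicle, both with overlap, and the second probe set of Abcc9 gave -0.39. The overlap of Abcc8 came from CCl4 replicate 3, at 8.49 against 7.31 and 7.14 on the other CCl4 arrays, and without it the difference was -0.48 with no overlap.

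The Abcb members of organelles went both ways. Abcb6, a porphyrin transporter, was higher in CCl4 livers without overlap by 0.46, or by 0.25 without CCl4 replicate 3. Abcb10, of the inner mitochondrial membrane, had -0.35 between CCl4 and vehicle and 0.32 between CCl4+Rot and CCl4, where its arrays did not overlap. A second Abcb10 probe set, present on all 9 arrays, gave -0.26 and -0.12 in these comparisons, both with overlap, so the sign with rottlerin depends on the probe set. Mitochondrial Abcb8 had 0.21 and 0.14. Abcb9, a lysosomal peptide transporter, was called present on 1 CCl4 array and on no other. From all arrays its bound was 3.10-fold higher with CCl4 than with vehicle. The log2 difference was 2.09 (SE 0.727, adjusted p 0.33 from limma), and it ran from 1.23 to 2.77 with single arrays left out. On the same terms the bound was 2.01-fold higher with CCl4 than with CCl4+Rot (adjusted p 0.782 from limma). The log2 difference of CCl4+Rot from CCl4 ran from -1.3 to -0.79 with single arrays left out.

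Abca8 and Abcd3 stood at opposite ends of the lipid and fatty acid transporters. Abca8, a poorly described lipid transporter, had log2 signals of 8.01, 8.03 and 8.24 in vehicle, 9.52, 9.57 and 8.63 in CCl4 and 8.95, 8.31 and 9.36 in CCl4+Rot livers. All arrays of both CCl4-treated groups were above all vehicle arrays, with a log2 difference of 1.14 for CCl4 (SE 0.347, adjusted p 0.285 from limma), or 1.45 without CCl4 replicate 3, and 0.78 for CCl4+Rot (adjusted p 0.621). Its dimmer probe set gave 0.69 for CCl4 with overlap. The neighbours Abca8a and Abca5 had -0.05 and 0.36 for CCl4, or 0.14 and 0.16 without CCl4 replicate 3, so the genes of this cluster did not share 1 difference.

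Abcd3 (PMP70) brings branched and very long chain acyl-CoA into peroxisomes. Its signals were 12.49, 12.51 and 12.56 in vehicle, 12.18, 12.19 and 11.71 in CCl4 and 12.21, 12.07 and 12.31 in CCl4+Rot livers. Both CCl4-treated groups were below vehicle on every array, with log2 differences of -0.49 (SE 0.183, adjusted p 0.354 from limma) and -0.32 (adjusted p 0.748). Its relative Abcd4 had 0.00 with overlap, or -0.23 without CCl4 replicate 3, and Abcd2, present on no vehicle array, read 5.20, 5.23 and 6.45 with vehicle and 5.12, 7.24 and 7.36 with CCl4, with overlap. Abca3, a phospholipid transporter, had its highest mean in CCl4+Rot livers, at 9.73, 9.67 and 10.32 against 9.49, 9.46 and 9.04 in vehicle. These groups did not overlap (log2 difference 0.58, adjusted p 0.602 from limma). A second Abca3 probe set, present on all 9 arrays, gave 0.24 with overlap. Abce1, Abcf1, Abcf2 and Abcf3, the ribosome-acting proteins, were present on all 9 arrays. On its brightest probe set each had a lower mean in CCl4 than in vehicle, with overlap. The log2 differences were -0.25 to -0.13 (-0.38 to -0.07 without CCl4 replicate 3). In CCl4+Rot each was lower than in vehicle by -0.41 to -0.12. Between CCl4+Rot and CCl4 the differences ran from -0.16 to 0.01. A second Abcf3 probe set, present on 7 arrays, gave 0.20 for CCl4 against vehicle, without overlap. For CCl4+Rot this probe set gave -0.31 against CCl4, without overlap, and -0.11 against vehicle. Abca4, the retinal ABC transporter, was present on 1 vehicle array.

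The 6 measured stellate cell and myofibroblast markers were all detected. Their summed signal was 6588 to 10700 in vehicle, 14780 to 25769 in CCl4 and 22362 to 26874 in CCl4+Rot livers. These sums did not overlap between vehicle and either treated group, but Col3a1 had the highest signal of the 6 on every array. Between CCl4 and vehicle, Des, Col1a1, Col3a1 and Pdgfrb did not overlap, whereas Lrat and Acta2 did. The 6 lymphocyte markers, of which Cd3d and Cd8a were present on no array, had sums of 942 to 1585, 1150 to 2163 and 1693 to 2567. The highest CCl4 sum was that of CCl4 replicate 3. Ptprc had the highest signal of the 6 on every array. Between CCl4+Rot and CCl4 it had a log2 difference of 0.60, while Cd3e had -1.40, Ms4a1 -0.39 and Cd79b -0.21, all with overlap. The sums therefore do not describe all markers alike. What stellate cells, myofibroblasts and lymphocytes contribute to Abca8, Abca3 and the other transporters was not tested. Of 5 measured markers of pancreas or kidney, Prss1, Cpa1, Umod and Slc12a1 were present on no array.

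**Figure D2:**
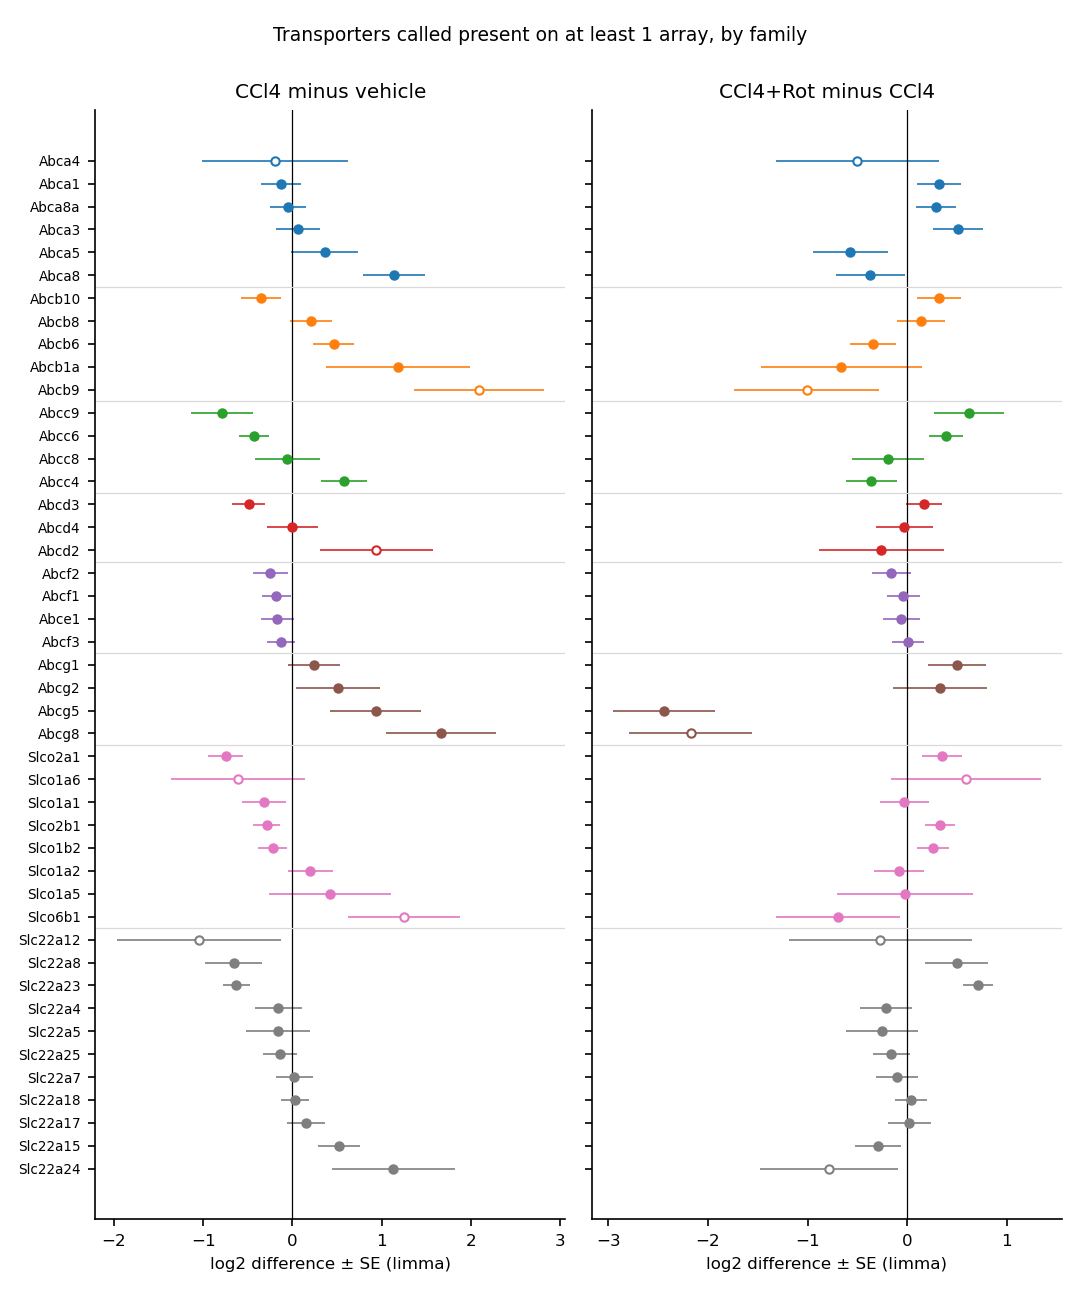
Log2 differences with their limma standard errors for 45 of the 46 transporters present on at least 1 array, ordered by family and coloured by it, for CCl4 minus vehicle on the left and CCl4+Rot minus CCl4 on the right. Filled points were present in both groups compared, and open points in at most 1 of them. Abcg5 (-2.44) and Abcg8 are farthest from 0 on the right, and the 4 Abcg members are all above 0 on the left.

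By family, the median log2 difference between CCl4 and vehicle was 0.72 for the 4 detected Abcg genes, 0.46 for the 5 Abcb genes and 0.01 for the 6 Abca genes. It was -0.26 for the 8 detected Slco genes, -0.25 for the 4 Abcc genes, -0.17 for Abce1 and the Abcf genes and -0.15 for the 12 Slc22a genes. All 4 Abcg genes and 4 of 5 Abcb genes were higher, and 5 of 8 Slco and 7 of 12 Slc22a genes were lower. Among the higher Abcb genes, Abcb9 was detected only through CCl4. These medians are descriptions of few genes and carry no test, and genes next to each other are counted separately. Within 200 kb of another member lay 27 of the 62, in 10 clusters, the largest with the 6 Slco1 genes of chromosome 4.

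The 16 transporters that were called present on no array included Abca2, Abca7, Abcc1, Abcc3, Abcc5, Abcc10, Abcg4, Slc22a2, Slc22a3, Slc22a6, Slc22a13, Slco1c1, Slco3a1, Slco4a1 and Slco5a1. They include Slc22a2 and Slc22a6, the cation and anion carriers best known from kidney, and Slco1c1, the thyroid hormone carrier of the brain. No fold is given for them. Their median log2 difference was 0.31 between CCl4 and vehicle and 0.14 without CCl4 replicate 3, while the 3645 genes of the table that were present on no array had 0.55 and 0.12. For CCl4+Rot against CCl4 it went from -0.11 to 0.26 when that array was left out. These calls are those of the brightest probe set of each gene. A dimmer Abcc5 probe set was present on 8 arrays. It read 6.15, 6.26 and 5.60 in vehicle and 6.52, 6.72 and 7.66 in CCl4 livers, without overlap (log2 difference 0.96, adjusted p 0.36 from limma). A dimmer probe set of Slco3a1 was present on 1 array.

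**Figure D3:**
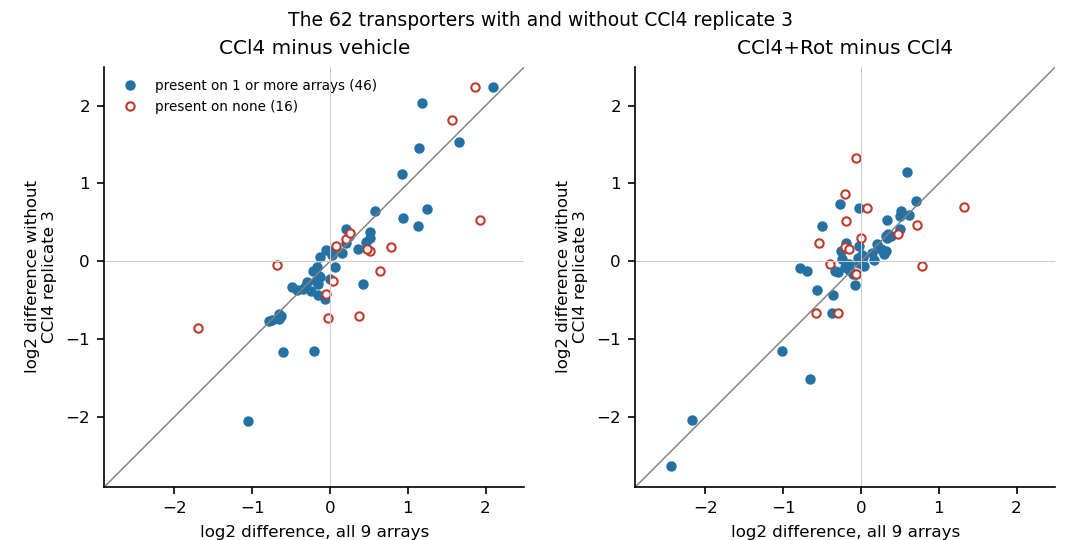
Log2 difference of each of the 62 transporters with all 9 arrays (horizontal) and without CCl4 replicate 3 (vertical), for CCl4 minus vehicle on the left and CCl4+Rot minus CCl4 on the right. Filled points are the 46 transporters present on at least 1 array, open points the 16 present on none, and the line marks equal values. Abcg5 stays near the line on the right, at -2.44 and -2.63, and Abcb1a leaves it on the left, at 1.18 and 2.04.

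Several probe sets read 18 of the transporters, and 14 of these had at least 2 probe sets present on 3 or more arrays. All such probe sets of a gene had the same sign in 11 of the 14 genes for CCl4 against vehicle, in 11 for CCl4+Rot against CCl4 and in 13 for CCl4+Rot against vehicle. Signs differed for Abca1, Abca3 and Abcf3 in the comparison of CCl4 with vehicle. They differed for Abcb10, Abcf3 and Abcg1 in that of CCl4+Rot with CCl4.

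**Figure D4:**
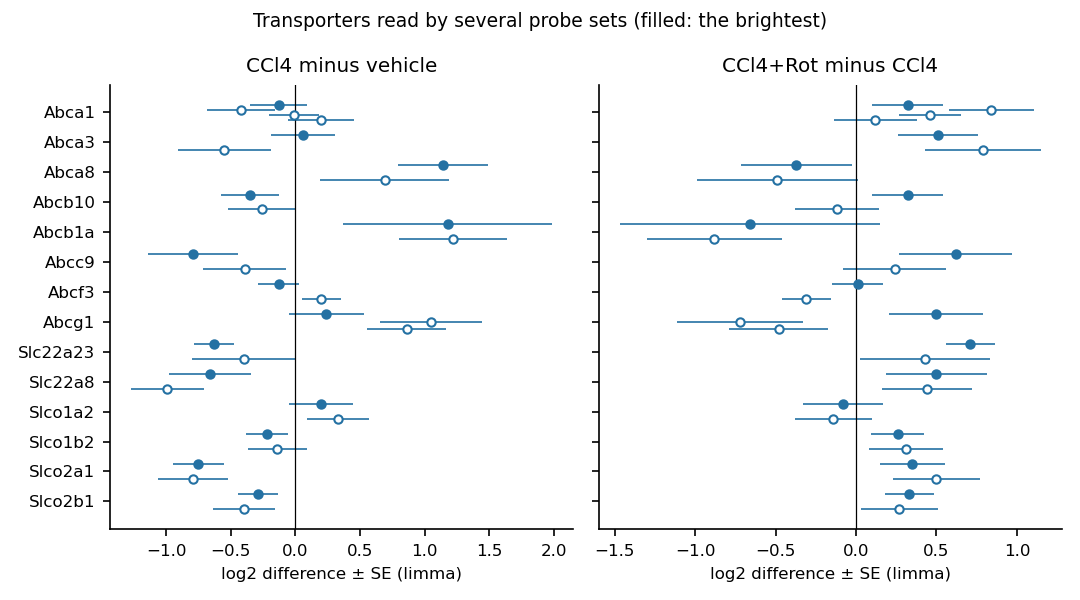
Log2 differences with limma standard errors for each probe set of the 14 transporters with at least 2 probe sets present on 3 or more arrays. Filled points are the brightest probe set of the gene, open points the others, and both panels give the difference named above them. Both Slco2a1 probe sets lie below 0 on the left (-0.75 and -0.79), and those of Abcg1 lie on both sides of 0 on the right (0.50, -0.48 and -0.72).

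Transport genes of the liver outside the rule were read in the same way. Of 14 listed genes, 12 were measured, 10 were detected and 0 passed the test in any comparison. The phospholipid exporter Abcb4 was higher with CCl4 by 0.72 without overlap (adjusted p 0.36 from limma), and Pdzk1, a scaffold for membrane carriers, was lower by a log2 difference of -0.50 (adjusted p 0.368). The bile salt exporter Abcb11 and the bile salt uptake carrier Slc10a1 had 0.16 and -0.21, and the nucleoside carrier Slc28a2 was higher with CCl4+Rot than with CCl4, by 0.55 (adjusted p 0.75 from limma). Of 14 transcriptional regulators known to act on transporter genes, 13 were detected and 0 passed. At an unadjusted limma p below 0.05, 0 regulators were higher and 1 was lower with CCl4+Rot than with CCl4 (Rxra). The pregnane X receptor Nr1i2 had -0.77 with CCl4 (adjusted p 0.355 from limma) and -0.97 with CCl4+Rot against vehicle (adjusted p 0.39), Hnf4a had -0.41 with CCl4, and the liver X receptor genes Nr1h3 and Nr1h2, known regulators of Abca1, Abcg1, Abcg5 and Abcg8, had 0.05 and -0.12 between CCl4+Rot and CCl4. Rxra, the partner of the pregnane X and liver X receptors, was present on 4 arrays and read 7.54, 8.19 and 8.17 in vehicle, 7.95, 8.62 and 7.14 in CCl4 and 7.72, 3.68 and 5.40 in CCl4+Rot livers (adjusted p 0.749 from limma between CCl4+Rot and CCl4, with overlap).

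A limma fit with a robust spread that follows the signal, run as an alternative, called 1.12% of all probe sets between CCl4 and vehicle, 0.00322% between CCl4+Rot and CCl4 and 0.776% between CCl4+Rot and vehicle. It called 2 transporters, both lower in CCl4 than in vehicle: Slc22a23 (adjusted p 0.0367) and Slco2a1 (adjusted p 0.041). Without CCl4 replicate 3, chosen after the values were seen, it called Slc22a23 and Abca8 but not Slco2a1 (adjusted p 0.0689). That fit called 313 of all 31042 probe sets between CCl4 and vehicle. Abcg5 had an adjusted p of 0.127 between CCl4+Rot and CCl4 in the robust fit with all arrays.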

How the data were processed

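RNA of 9 rat livers was hybridised to Affymetrix rat arrays. For each array and each of 31099 probe sets, the authors deposited a log2 signal beside a present, marginal or absent call. The submitters' processing notes name MAS5 and affy without versions, and the genome build was not given in the sources used here. On every array the antilogs had a trimmed mean of 500 with 2% trimmed at each end, so arrays share a common scale and no quantile step. A global scaling of this kind makes every log2 difference relative to the other probe sets of its array.

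The values were used as deposited. The 57 control probe sets were left out, and the other 31042 were fitted with limma 3.58.1 (R 4.3.3) with 3 group means, all 9 arrays sharing 1 estimate of the spread, and Benjamini-Hochberg adjustment over all of them. Groups came from the sample titles. The labels do not tie each array to its own rat, so p-values measure only the spread between these samples, which may be technical. Detected means present on at least 1 array. A gene present in only 1 of the groups compared has a bound, an estimate from the group means that is not a firm minimum. A gene present in neither has no fold. Named were the 10 transporters with the smallest p in each comparison among those present on at least 3 arrays, a list of well known hepatocyte transporters, and any that passed. The members and lists were chosen with earlier results of these data known. Medians over members carry no test. Promoter windows of RefSeq (GRCr8) were found for 51 of the 62 members. Alternatives were normalization, filters, test, spread, weights, probe set and leaving out each array. The limma step was tested on simulated data. The number of arrays limits the precision. Counts and medians cover all 62 members, and the values of 2 of them are not reported here.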

Additional observations from a re-analysis of the deposited data

How the results depend on the processing

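No transporter passed in any comparison under quantile normalization, centring, both detection or intensity filters, array weights, the other choices of probe set, a 2-fold threshold or no fold threshold, the methods' t-test with Benjamini-Hochberg adjustment, or with any 1 array left out. The count for CCl4 against vehicle became 2 with the robust spread (Slc22a23 and Slco2a1), 2 with the robust spread and CCl4 replicate 3 left out, added after the data were seen (Slc22a23 and Abca8), and 4 with the methods' t-test unadjusted (these 3 among them). The unadjusted t-test gave 2 for CCl4+Rot against CCl4 (Abcg5 and Slc22a23) and 3 for CCl4+Rot against vehicle (Abcg5, and Abcc1 and Slc22a13, which were present on no array). Over all probe sets it gave 1774, 851 and 2126 without adjustment. The robust spread gave 348, 1 and 241 over all probe sets, and 313, 11 and 365 with CCl4 replicate 3 left out. Vehicle and CCl4+Rot share the replicate numbers 4 and 5, and vehicle and CCl4 the number 3, but same-numbered arrays deviated together with correlations of 0.02, 0.0355 and 0.068 only, so the numbers were not taken as pairs. The fit with the replicate block called 0 transporters in all 3 comparisons, and 0, 1 and 8 probe sets.

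The median difference of the 46 detected transporters stayed close to 0. With array weights it was -0.12 for CCl4 against vehicle, 0.07 for CCl4+Rot against CCl4 and 0.05 for CCl4+Rot against vehicle, and with single arrays left out it ran from -0.10 to 0.07 for CCl4 against vehicle, from -0.10 to 0.07 for CCl4+Rot against CCl4 and from -0.03 to 0.06 for CCl4+Rot against vehicle. The cause was not tested. Abcg1 reversed between CCl4+Rot and CCl4, from 0.50 to -0.23, with the mean of its probe sets in place of the brightest, which reads in the dimmer 2 that differ in sign. Of 210 alternative values for the named transporters in each comparison, 204, 207 and 209 kept direction and side of the threshold. Low signals limit the 16 transporters that were present on no array and those with bounds.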

Other observations

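Among probe sets of the rule that name several genes, and so were not used, 1 for Abcg3l2 and Abcg3l4 with 2 uncharacterised loci was present on all 9 arrays, at log2 signals of 12.20, 11.83 and 12.01 in vehicle, 11.88, 12.08 and 11.76 in CCl4 and 12.01, 12.05 and 12.15 in CCl4+Rot livers, with overlap in all comparisons. Cela1, a pancreatic elastase gene on the marker list for neighbouring tissue, was singled out after its values were seen. Its log2 signals were 8.34, 9.70 and 9.90 in vehicle, 4.47, 6.20 and 4.81 in CCl4 and 5.18, 4.56 and 4.56 in CCl4+Rot livers, and it was called present on 1 array. The adjusted p from limma was 0.156 for CCl4 against vehicle.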
